A study of Homo sapiens with 8 samples.

Results

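The EGR, FOS and JUN families of transcription factors were followed as 10 genes (EGR1, EGR2, EGR3, FOS, FOSB, FOSL1, FOSL2, JUN, JUNB and JUND) of the 23393 genes in the read-count table. The genes were listed by family after EGR1 had been seen to differ between the cell lines in these same data, so EGR1 itself, and how far each gene's response differed from one line to the other, are described without a test. MDA-MB-231 is an established human triple-negative breast cancer cell line that makes little ASS1 and so depends on arginine from the medium. Parental cells and ρ0 cells, which were depleted of mitochondrial DNA, were each sequenced in control medium and after 48 h of arginine starvation, with 2 libraries per group. The sample labels describe the starved cells as treated with arginine deiminase, an enzyme that degrades arginine, at 0.3 µg/mL in full medium, whereas the methods of the study describe an arginine-free medium with dialyzed serum. The ρ0 cells are 1 clone (clone 27), received as a line and kept with sodium pyruvate, uridine and ethidium bromide, so a difference between the lines may belong to that clone. The loss of mitochondrial DNA itself was not checked here. Nothing in the labels says that the 2 libraries of a group came from separate cultures, so the p-values measure the spread between these libraries, which may be technical.

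Immediate early genes are transcribed within minutes of a signal and need no new protein to be switched on. Serum response factor (SRF), bound at a CArG box together with ternary complex factors that ERK phosphorylates, and CREB family proteins, bound at cyclic AMP response elements (CREs), are their best known activators. EGR proteins are zinc finger factors that bind GC-rich elements and are held back by the co-repressors NAB1 and NAB2. FOS proteins pair with JUN proteins through leucine zippers to form AP-1, while JUN proteins can also pair with each other. FOSL1 and FOSL2 lack the strong activation domain of FOS and FOSB, and JUNB and JUND are often weaker activators than JUN. In breast cancer cells, AP-1 is best known for its part in invasion and in the transcription of proteases.

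RefSeq promoter windows on GRCh38.p14, which hold the 250 bases before each gene's start, were searched for 8 of the 10 genes. FOSL1 had no window, and EGR3 was left out of the search. The CRE half-site TGACGT, read on both strands, was present in the windows of 6 of these 8 genes (EGR1, EGR2, FOS, FOSB, FOSL2 and JUND), compared with 7.1% of all 35116 windows. A CArG box was found for 2 genes, EGR1 and EGR2, compared with 1.16% of all windows. Elements more than 250 bases before the start were not searched, so a gene without a match here may still have one further upstream. EGR2 has 3 windows, of which only the third held a match. The 6 windows below are shown because they carry these elements (EGR1, EGR2, FOS, FOSB and JUND) or neither of them (JUNB), 5′ to 3′ on the strand of the gene, with CArG boxes and CRE half-sites in capitals. Each print stops at the first base that GENCODE v29 annotates as exon, whereas the search covered the whole window. The regions are chr5:138465229-138465478 (plus strand), chr10:62816367-62816616 (minus strand), chr14:75278578-75278773 (plus), chr19:45467746-45467994 (plus), chr19:12791236-12791485 (plus) and chr19:18281623-18281872 (minus).
EGR1: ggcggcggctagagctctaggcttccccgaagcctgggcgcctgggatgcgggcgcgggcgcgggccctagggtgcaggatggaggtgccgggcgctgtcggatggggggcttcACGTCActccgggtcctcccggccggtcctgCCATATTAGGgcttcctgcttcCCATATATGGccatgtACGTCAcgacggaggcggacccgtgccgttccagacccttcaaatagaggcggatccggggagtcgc
EGR2: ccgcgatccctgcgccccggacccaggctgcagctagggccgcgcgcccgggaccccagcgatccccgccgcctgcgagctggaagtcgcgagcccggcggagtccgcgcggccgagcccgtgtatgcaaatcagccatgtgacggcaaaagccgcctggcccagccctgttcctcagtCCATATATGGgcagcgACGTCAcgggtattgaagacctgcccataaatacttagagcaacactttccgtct
FOS: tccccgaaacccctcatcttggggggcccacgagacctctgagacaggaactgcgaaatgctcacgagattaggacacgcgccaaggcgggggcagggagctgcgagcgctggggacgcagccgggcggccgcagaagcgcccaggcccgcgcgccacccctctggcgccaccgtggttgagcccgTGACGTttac
FOSB: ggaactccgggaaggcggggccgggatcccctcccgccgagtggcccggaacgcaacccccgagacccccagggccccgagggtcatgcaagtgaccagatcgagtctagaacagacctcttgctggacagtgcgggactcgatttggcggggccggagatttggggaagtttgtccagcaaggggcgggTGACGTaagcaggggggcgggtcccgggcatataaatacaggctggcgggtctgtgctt
JUNB: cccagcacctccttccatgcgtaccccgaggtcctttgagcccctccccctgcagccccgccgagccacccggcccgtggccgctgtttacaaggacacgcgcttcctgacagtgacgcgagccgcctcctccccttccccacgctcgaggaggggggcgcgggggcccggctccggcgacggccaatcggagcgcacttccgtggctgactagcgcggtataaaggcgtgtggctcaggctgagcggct
JUND: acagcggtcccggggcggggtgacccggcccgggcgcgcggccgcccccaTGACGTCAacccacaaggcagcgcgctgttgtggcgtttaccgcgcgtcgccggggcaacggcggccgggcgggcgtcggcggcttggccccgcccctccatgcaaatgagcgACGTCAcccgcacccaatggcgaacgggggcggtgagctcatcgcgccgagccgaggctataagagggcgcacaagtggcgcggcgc

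In the EGR1 window, CArG boxes started 105 and 83 bases before the gene's start, and half-sites at 136 and 67 bases. The EGR2 window had its CArG box at 71 bases and its half-site at 55 bases. Half-sites lay at a like distance in FOS (64 bases), FOSB (60 bases) and FOSL2 (66 bases). In JUND, the 2 overlapping half-sites at 200 and 198 bases are the 2 strands of the full element TGACGTCA, which 1.65% of all windows held, and a further half-site lay at 87 bases. JUN had the variant TGACATCA at 67 bases, found in 2.37% of windows, and no half-site. The AP-1 element TGANTCA was in none of the 8 windows and in 6.57% of all windows. The zinc finger element GCGNGGGCG, present in 8.41% of all windows, was found only in EGR1. The letters TATAAA, present in 10.7% of all windows, occurred in FOS, FOSB and JUNB. These matches describe letters in the windows and are not evidence of binding.

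The libraries held 25259503 to 31022155 counts. Replicates differed far more in ρ0 control cells than in the other groups, and their biological coefficient of variation was 25.1%, compared with 1.84% to 5.18%. EGR1, FOSB and FOSL1 were among the 10.1% of genes that differed at least 2-fold between the 2 ρ0 control libraries, so the results below that involve ρ0 cells were also computed without 1 or the other. Values without 1 library are given as effect sizes only, since the library left in that group has no spread of its own. VIM, CD44, AXL, CAV1, MSN and KRT18, which mark MDA-MB-231, were abundant in all libraries, and the hormone receptor genes ESR1 and PGR had at most 6 counts and 1 count. EPCAM and CDH1, which are low in MDA-MB-231, were at 16.4 to 23.7 CPM and 4.31 to 15.9 CPM in the 4 ρ0 libraries but at most 0.521 and 0.0709 CPM in the 4 parental libraries. Of the markers of other cell types, PTPRC reached 0.452 CPM, PECAM1 3.16 CPM and COL1A1 16.0 CPM. The part of these differences in the comparisons between the lines was not tested.

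Arginine starvation was followed by higher RNA of all 9 tested genes in parental cells (7 of 9 with upper-quartile or total-count scaling, where FOSL2 and JUND did not pass), and in ρ0 cells by higher JUNB alone when both ρ0 control libraries were used. Among the tested genes, the largest differences in parental cells were those of EGR3, FOSB, FOS and EGR2, which were under 5 CPM in control medium. All 8 libraries entered edgeR's quasi-likelihood test of the counts, with Benjamini-Hochberg adjustment over 15262 genes. Higher or lower means an adjusted p-value under 0.05, and a DEG also has a log2 fold change above 1 or below -1. In parental cells 7 of the 9 genes were DEGs, all higher. Of all tested genes, 65.9% passed the test in parental cells, 30.4% being higher and 35.5% lower, and 12.7% were higher DEGs. In ρ0 cells 1 of the 9 genes passed, as a higher DEG, while 41.3% of all genes passed, 19.2% higher and 22.1% lower, and 4.22% were higher DEGs. The ρ0 count rested on the wide spread of the ρ0 control libraries, so a gene that did not pass there cannot be called unchanged. That spread enters every standard error, because the fit estimates it over all groups. With the compared groups alone, 83.0% of all genes passed in parental cells and 22.1% in ρ0 cells. Cultures were measured in bulk, so more RNA per cell and more cells with that RNA cannot be told apart. Levels are CPM throughout, which are counts relative to the TMM-scaled library size.

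**Figure D1:**
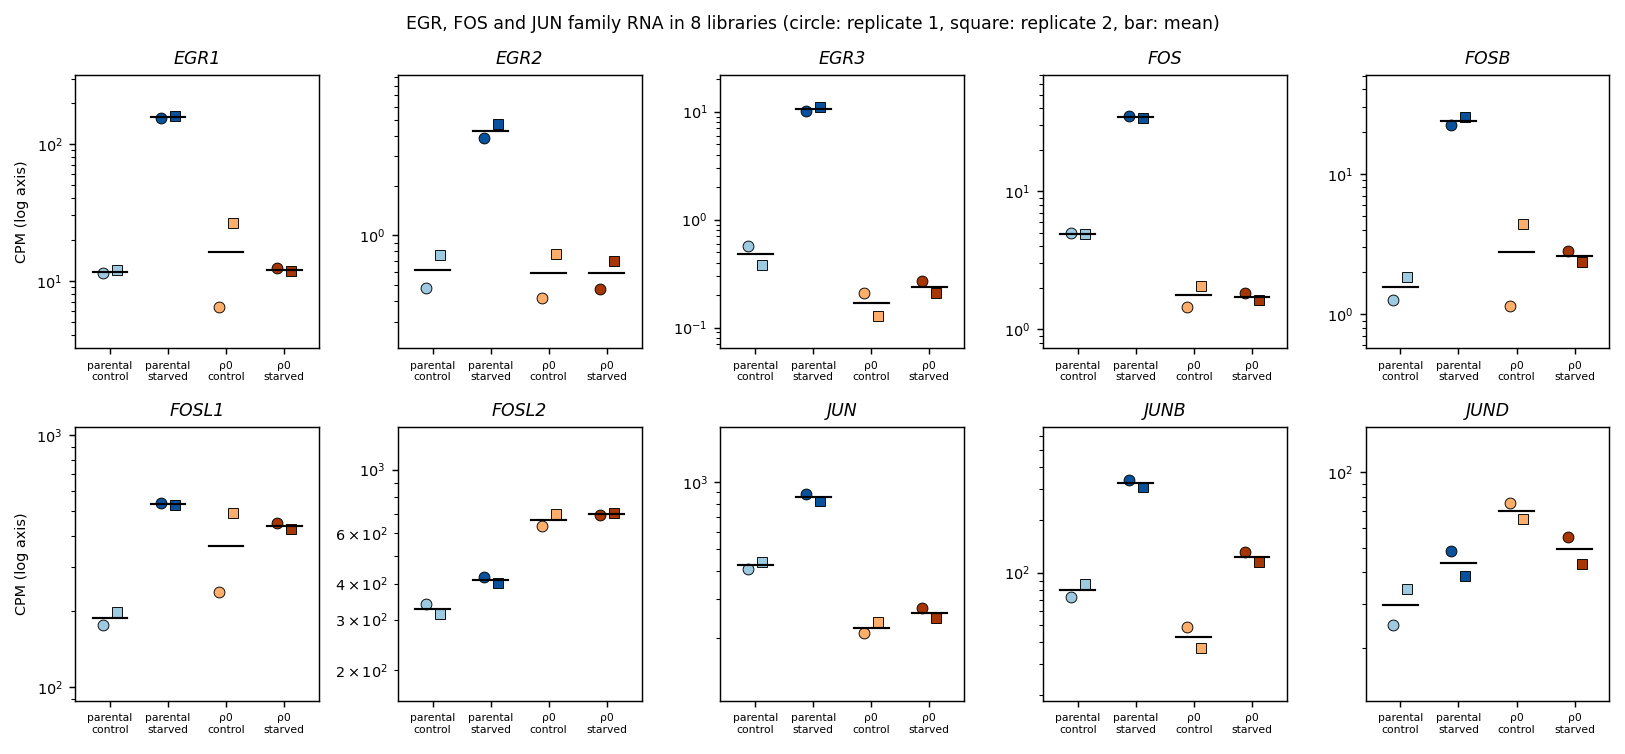
RNA level (CPM, log axis) of each of the 10 genes in the 8 libraries, grouped by line and medium, with circles for replicate 1, squares for replicate 2 and a bar for the mean of 2. The mean is highest in starved parental cells except for FOSL2 and JUND. The 2 ρ0 control libraries lie far apart for EGR1, FOSB and FOSL1.

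EGR1, the most studied EGR factor and a sensor of ERK signalling, was at 11.3 and 11.9 CPM in the parental control libraries and at 155 and 161 CPM in the arginine-starved ones. In ρ0 cells it was at 6.42 and 26.2 CPM in control medium and at 12.3 and 11.7 CPM after starvation. The starved parental libraries thus stood apart from the 6 others, and the starved ρ0 libraries fell between the 2 ρ0 control libraries. The log2 fold change was 3.77 in parental cells and -0.45 in ρ0 cells, where it became -1.12 without control replicate 1 and 0.92 without control replicate 2. No direction could therefore be given for EGR1 in ρ0 cells.

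EGR2 is a related factor known from nerve myelination. Its levels were 0.480 and 0.764 CPM in parental control cells, and 3.88 and 4.68 CPM in starved parental cells. In ρ0 cells they were 0.416 and 0.772 CPM in control medium and 0.473 and 0.704 CPM after starvation. Starved parental cells were again the only group above the rest. EGR2 rose by 2.79 ± 0.34 in parental cells (log2, n = 2 against 2, SE from the fit of all 8 libraries, adjusted p = 2.7e-04 in edgeR's test). It did not pass in ρ0 cells (-0.04 ± 0.42, adjusted p = 0.96), where the value was -0.41 without control replicate 1 and 0.48 without replicate 2.

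EGR3, which EGR1 itself can induce, was nearly silent in ρ0 cells. It had 19 and 11 counts in parental control libraries and 256 and 311 counts in starved ones, but only 6 and 4 counts in ρ0 control libraries and 8 and 5 counts in starved ρ0 libraries. All 4 ρ0 libraries were below the 0.343 CPM that the filter on low genes required, so the gene was tested only because parental cells expressed it. The parental rise was 4.45 ± 0.25 on the log2 scale (adjusted p = 1.2e-05 in edgeR's test), from a mean of 0.476 CPM to 10.6 CPM. In ρ0 cells the value of 0.52 ± 0.45 did not pass (adjusted p = 0.48), and it was 0.89 without control replicate 1 and 0.23 without replicate 2. An antisense gene, AC055854.1, overlaps 164 bases of EGR3 in GENCODE v29, and whether counting used strand is not given in the sources used here.

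FOS, the founding FOS protein and the partner of JUN in classical AP-1, had 165 and 141 counts in parental control libraries and 884 and 962 in starved ones. The 4 ρ0 libraries had 42 and 64 counts in control medium and 54 and 39 counts after starvation. In CPM, FOS went from 4.95 and 4.90 to 35.0 and 34.1 in parental cells, whereas every ρ0 library was between 1.46 and 2.06. The rise in parental cells was 2.81 ± 0.16 on the log2 scale (adjusted p = 1.2e-05, edgeR). Starved and control ρ0 cells overlapped, with -0.03 ± 0.20 (adjusted p = 0.92), which became -0.25 without control replicate 1 and 0.26 without replicate 2.

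FOSB, which like FOS carries a strong activation domain, was at 1.26 and 1.84 CPM in parental control cells and at 22.2 and 25.5 CPM after starvation. The ρ0 control libraries were at 1.14 and 4.41 CPM, and the starved ρ0 libraries at 2.81 and 2.36 CPM lay between them. In edgeR's test the parental rise was 3.95 ± 0.52 (log2, adjusted p = 3.9e-04) and the ρ0 value was -0.11 ± 0.52 (adjusted p = 0.89). The ρ0 value of FOSB was -0.76 without ρ0 control replicate 1 and 1.19 without replicate 2. FOSB therefore had no stable direction in ρ0 cells.

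FOSL1 (FRA1), the FOS protein most tied to invasive breast cancer, was already abundant in control medium. Parental control libraries had 177 and 198 CPM, and starved parental libraries 541 and 530 CPM. In ρ0 cells the control libraries differed from each other, with 239 and 490 CPM, and the starved libraries at 450 and 427 CPM fell between them. The rise in parental cells was 1.51 ± 0.28 (log2, adjusted p = 0.0023 in edgeR's test). The ρ0 value of 0.26 ± 0.28 (adjusted p = 0.48) became -0.16 without control replicate 1 and 0.88 without control replicate 2, so it had no stable direction.

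FOSL2 (FRA2) had the smallest rise among the FOS genes in parental cells. It was at 339 and 313 CPM in parental control cells and at 421 and 403 CPM after starvation, a small rise of 0.34 ± 0.09 (log2, adjusted p = 0.0090, edgeR). The rise was 0.28 without parental control replicate 2 and 0.31 without parental starved replicate 1. It did not pass with upper-quartile or total-count scaling (0.22 and 0.18). In ρ0 cells it was at 635 and 699 CPM before and 692 and 704 CPM after starvation (0.07 ± 0.08, adjusted p = 0.56). The ρ0 value of FOSL2 was 3.0e-04 without ρ0 control replicate 1 and 0.15 without replicate 2. All ρ0 libraries were above all parental libraries.

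JUN, the central AP-1 subunit and a JNK substrate, was the most abundant of the 10 genes by count in parental cells. Its levels were 411 and 439 CPM in parental control cells and 883 and 826 CPM in starved ones, and they were 211 and 236 CPM in control and 273 and 248 CPM in starved ρ0 cells. Parental JUN rose 2.01-fold in the means (log2 fold change 1.01 ± 0.10, adjusted p = 8.1e-05, edgeR). The ρ0 groups did not overlap, but the difference of 0.22 ± 0.10 did not pass (adjusted p = 0.10). Leaving out ρ0 control replicate 1 gave 0.14, and leaving out replicate 2 gave 0.32.

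JUNB, which can restrain JUN and takes its place late after a signal, was the one tested gene that passed as higher in both lines with all 8 libraries. Parental control libraries had 72.6 and 85.7 CPM and starved ones 339 and 307 CPM. The ρ0 libraries had 48.8 and 37.2 CPM in control medium and 130 and 114 CPM after starvation, so in each line the starved libraries were above the controls. JUNB rose by 2.03 ± 0.15 in parental cells (log2, adjusted p = 3.2e-05) and by 1.51 ± 0.15 in ρ0 cells (adjusted p = 4.3e-04, edgeR). Without ρ0 control replicate 1 or 2 the ρ0 rise was 1.72 or 1.34.

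JUND, a stably expressed subunit that is often antiproliferative, differed in opposite directions in the 2 lines. In parental cells it went from 24.8 and 34.3 CPM to 48.7 and 38.6 CPM, and in ρ0 cells from 75.7 and 64.9 CPM to 55.5 and 43.2 CPM. Neither pair of groups overlapped. The parental rise of 0.56 ± 0.20 passed narrowly (log2, adjusted p = 0.039, edgeR), and not with upper-quartile or total-count scaling (0.45 and 0.40). The rise was 0.35 without parental control replicate 1 and 0.39 without parental starved replicate 1. The ρ0 value of -0.51 ± 0.20 did not pass (adjusted p = 0.077). Without ρ0 control replicate 1 or 2 the ρ0 value of JUND was -0.39 or -0.60.

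**Figure D2:**
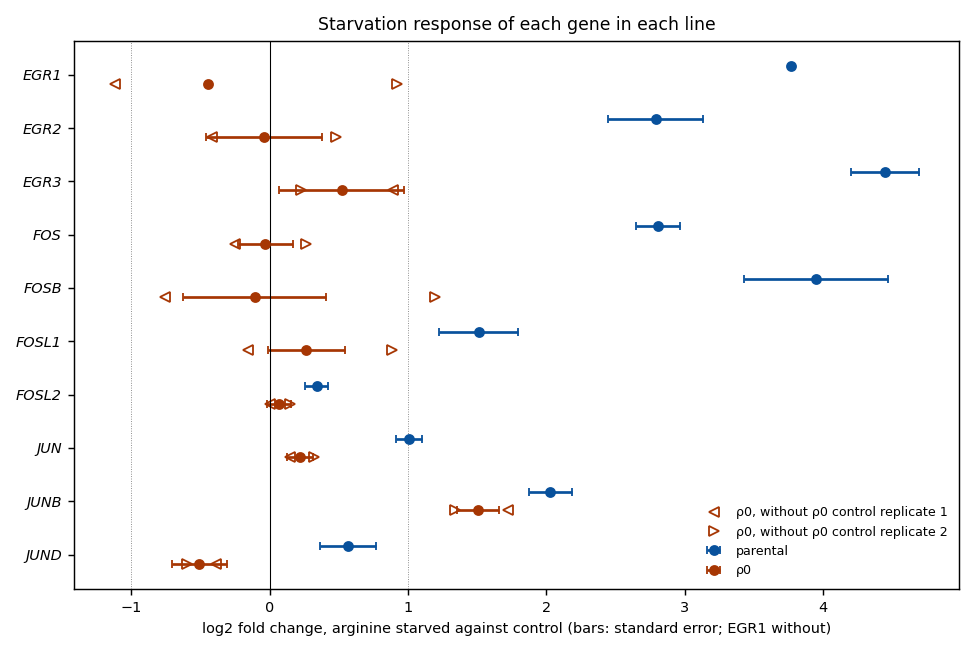
Log2 fold change of arginine-starved against control cells for each gene, with parental cells in blue and ρ0 cells in brown, standard errors as bars (none for EGR1, which was not tested) and open triangles for ρ0 cells without 1 control library. Parental values run from 0.34 for FOSL2 to 4.45 for EGR3, and ρ0 values from -0.51 for JUND to 1.51 for JUNB.

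The difference between the responses (ρ0 minus parental log2 fold change) had a median of 0.02 over all tested genes. It was -4.21 for EGR1, -4.06 for FOSB, -3.93 for EGR3, -2.84 for FOS and -2.83 for EGR2. The genes that were abundant in control medium had smaller values, from -1.25 for FOSL1 and -1.07 for JUND to -0.79 for JUN, -0.52 for JUNB and -0.27 for FOSL2. These differences were not tested, since the genes were picked for such a difference in EGR1. The EGR1 value was -4.89 without ρ0 control replicate 1 and -2.89 without replicate 2.

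To compare the levels of family members with each other, CPM were divided by the length of each gene's exons (CPM per kb). The FOS family sum went from 152 ± 5.68 (SD, n = 2) in parental control cells to 368 ± 5.88 in starved parental cells, and was 297 ± 103 and 342 ± 7.72 in control and starved ρ0 cells. FOSL1 made up most of it, with 67.1% of the sum in parental control cells and 79.1% in starved ones, and 64.9% and 69.6% in ρ0 cells. FOS itself reached 3.20% of the family in starved parental cells, from 1.10% in control medium, compared with 0.205% and 0.171% in control and starved ρ0 cells. In every group the FOS family sum was thus largely RNA of FOSL1 and FOSL2, the members without a strong activation domain.

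The JUN family sum was 179 ± 14.4 CPM per kb in parental control cells and 442 ± 28.0 in starved ones, compared with 125 ± 3.63 and 167 ± 15.9 in ρ0 cells. JUNB took 24.2% of the JUN family in parental control cells and 40.1% in starved ones, and 18.9% and 40.2% in ρ0 cells, so its share after starvation was alike in the 2 lines. JUND took 30.3% in ρ0 control cells, 15.8% in starved ρ0 cells and 8.79% and 5.28% in parental cells. For the EGR family, EGR1 made up 92.4% to 94.4% of the sum in every group, and the sum itself was 4.0 ± 0.16, 54.1 ± 1.57, 5.43 ± 4.53 and 4.07 ± 0.0888 CPM per kb in the same order. These sums are described without a test.

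**Figure D3:**
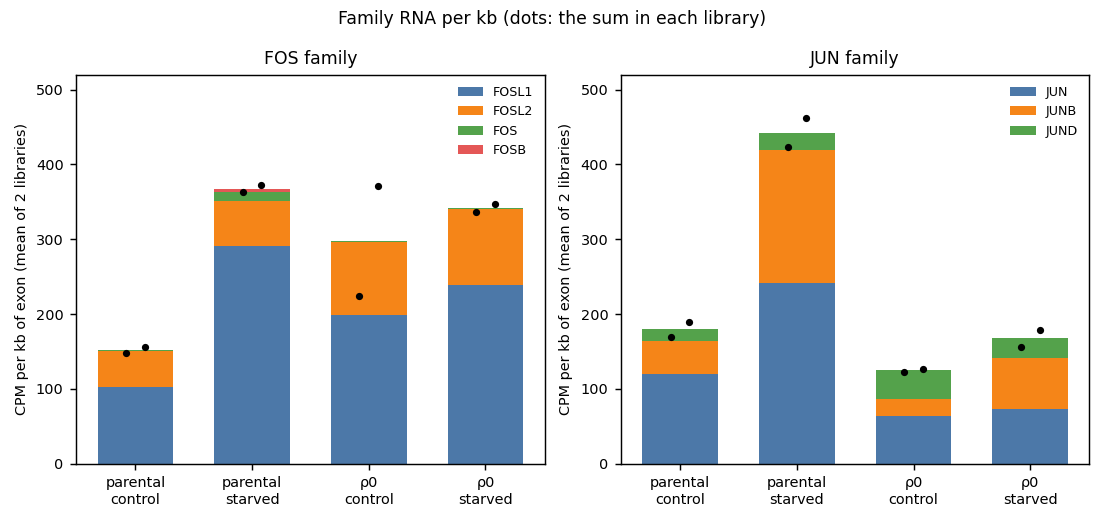
Summed RNA of the FOS family (left) and JUN family (right) in CPM per kb of exon, stacked by gene as the mean of 2 libraries per group, with a dot for the sum in each library. FOSL1 is the largest FOS part in all 4 groups, and the JUN family sum is highest in starved parental cells.

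In control medium, ρ0 cells had more FOSL1, FOSL2 and JUND and less FOS, JUN and JUNB than parental cells, by edgeR's test. These 7 of 9 calls, 3 higher and 4 lower, stand beside 62.3% of all genes that passed, 30.5% higher and 31.8% lower. The fourth gene called lower is EGR3, with 6 and 4 counts in the ρ0 control libraries against 19 and 11 in the parental ones. It entered the test only through parental cells, so no fold is given here and its call is no support. JUND was 2.38-fold higher in the means (log2 1.25 ± 0.20, adjusted p = 0.0012), FOSL2 2.05-fold higher (1.03 ± 0.09, adjusted p = 4.4e-05) and FOSL1 1.94-fold higher (0.96 ± 0.28, adjusted p = 0.019). FOS was 2.80-fold lower (-1.48 ± 0.18, adjusted p = 2.7e-04), JUN 1.90-fold lower (-0.93 ± 0.10, adjusted p = 1.3e-04) and JUNB 1.84-fold lower (-0.88 ± 0.15, adjusted p = 0.0017). EGR2 (-0.04 ± 0.41, adjusted p = 0.94) and FOSB (0.86 ± 0.54, adjusted p = 0.20) did not pass. EGR2 was at 0.33 without ρ0 control replicate 1 and -0.50 without replicate 2. For EGR1 the log2 difference was 0.50, which was 1.18 without ρ0 control replicate 1 and -0.80 without replicate 2.

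Leaving out ρ0 control replicate 1 gave 1.39 for FOSL1 and 1.52 for FOSB, and leaving out replicate 2 gave 0.41 for FOSL1 and -0.36 for FOSB. FOSL2, JUND, FOS, JUN and JUNB kept their direction both times. FOSL1 was at 0.88 and 1.04 without 1 or the other parental control library. The calls of EGR3 and FOSL1 were lost with the compared groups alone.

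Under starvation, 6 of the 9 genes were lower in ρ0 than in parental cells, all as DEGs, 1 was higher and 2 did not pass. Of all genes, 66.5% passed here, 32.9% higher and 33.5% lower, and 16.8% were lower DEGs. The genes were listed after EGR1 had differed between the lines, and EGR1 differed in this contrast. The count and the p-values of this contrast are therefore given as description and are no support for a difference of the families. One of the 6 is EGR3, with 8 and 5 counts in starved ρ0 libraries against 256 and 311 in starved parental ones. It passed the filter through parental cells alone, which favours a lower value in ρ0 cells. No fold is therefore given, and its call is no support. FOS was 20.1-fold lower in the means (log2 -4.32 ± 0.18, adjusted p = 2.0e-06 in edgeR's test). FOSB was 9.22-fold lower (-3.20 ± 0.50, adjusted p = 8.5e-04) and EGR2 7.27-fold lower (-2.87 ± 0.35, adjusted p = 2.6e-04). JUN was 3.28-fold lower (-1.71 ± 0.10, adjusted p = 6.7e-06) and JUNB 2.64-fold lower (-1.40 ± 0.15, adjusted p = 1.3e-04), while FOSL2 was 1.69-fold higher (0.76 ± 0.09, adjusted p = 1.6e-04). FOSL1 (-0.29 ± 0.28, adjusted p = 0.39) and JUND (0.18 ± 0.20, adjusted p = 0.46) did not pass. The starved libraries did not overlap for FOSL1, at 450 and 427 CPM in ρ0 cells and 541 and 530 CPM in parental cells. Its standard error also holds the spread of the ρ0 control libraries, so FOSL1 cannot be called alike in the 2 starved lines. FOSL1 was at -0.28 without ρ0 control replicate 1 and -0.26 without replicate 2. EGR1 was 13.2-fold lower in the means, with no test.

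**Figure D4:**
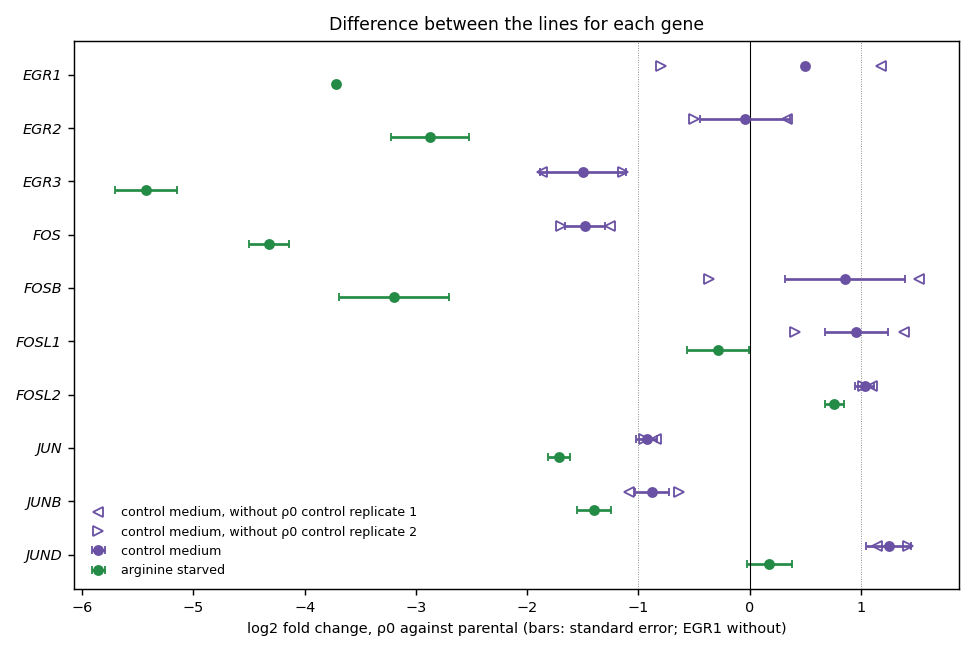
Log2 fold change of ρ0 against parental cells for each gene, in control medium (purple) and after arginine starvation (green), with standard errors as bars (none for EGR1) and open triangles for control medium without 1 ρ0 control library. EGR2, FOS and FOSB lie between -2.87 and -4.32 after starvation, whereas in control medium the 3 lie between -1.48 and 0.86, and the fitted values of EGR3 rest on at most 8 counts in each ρ0 library.

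Regulators of these genes were followed in 10 factors, namely SRF and its cofactors, the CREB family and the NAB co-repressors. In parental cells 5 were higher, 1 lower and 4 did not pass, with a median log2 fold change of 0.40 compared with -0.07 for all tested genes, of which 30.4% were higher and 35.5% lower, and in ρ0 cells 5 were also higher and 1 lower (median 0.34, all genes -0.02, with 19.2% higher and 22.1% lower). The ρ0 median was 0.43 without ρ0 control replicate 1 and 0.26 without replicate 2. SRF rose from 132 and 133 to 338 and 322 CPM in parental cells and from 76.1 and 103 to 136 and 135 CPM in ρ0 cells (log2 1.31 ± 0.13, adjusted p = 1.1e-04, and 0.60 ± 0.13, adjusted p = 0.0099, edgeR). MKL1 (MRTFA), an actin-sensing SRF coactivator, rose in parental cells (0.95 ± 0.09, adjusted p = 7.0e-05), and its relative MKL2 (MRTFB) fell in both lines (-1.47 ± 0.10 and -0.70 ± 0.10). NAB2, which EGR1 induces and which represses it in turn, rose in both (0.85 ± 0.10 and 0.78 ± 0.10, adjusted p = 2.2e-04 and 0.0012). ELK4, a ternary complex factor, was at 0.01 ± 0.10 in parental cells (adjusted p = 0.96) and rose by 0.65 ± 0.10 in ρ0 cells (adjusted p = 0.0024).

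Among 15 tested genes of ERK, JNK and p38 signalling, 6 were higher and 7 lower in parental cells, and 4 were higher and 6 lower in ρ0 cells (medians 0.17 and -0.16). MAP2K6 is among the lower genes in both lines, with means of only 0.0198 and 0.205 CPM after starvation in parental and ρ0 cells. It passed the filter on low genes through control cells, so its calls are no support. Higher and lower calls took 30.4% and 35.5% of all genes in parental cells and 19.2% and 22.1% in ρ0 cells. Without ρ0 control replicate 1 or 2 the ρ0 median was -0.10 or -0.09. RPS6KA5 (MSK1), which phosphorylates CREB and histone H3, rose in both lines (1.26 ± 0.20 and 1.24 ± 0.20), as did MAPK8, which encodes JNK1 (0.89 ± 0.08 and 0.75 ± 0.08). MAPK3, which encodes ERK1, fell in both (-1.50 ± 0.17 and -1.0 ± 0.17), and so did MAPK14, which encodes p38α (-1.01 ± 0.08 and -0.57 ± 0.08), and MAP2K2, which encodes MEK2 (-0.90 ± 0.08 and -0.59 ± 0.08). All these passed edgeR's test. RNA levels do not show kinase activity.

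Several other leucine zipper genes whose products can pair with FOS or JUN rose in both lines. Of 17 tested genes, 8 were higher and 3 lower in parental cells (median 0.31), and 11 were higher and 0 lower in ρ0 cells (median 0.89). Among all genes the shares higher and lower were 30.4% and 35.5% in parental cells, and 19.2% and 22.1% in ρ0 cells. Leaving out ρ0 control replicate 1 or 2 gave a ρ0 median of 0.77 or 1.31. ATF3, a stress-induced factor that pairs with JUN, rose from 8.69 and 9.34 to 166 and 170 CPM in parental cells, and from 14.0 and 22.0 to 74.0 and 71.5 CPM in ρ0 cells (log2 4.22 ± 0.20, adjusted p = 9.0e-06, and 2.01 ± 0.19, adjusted p = 3.1e-04, edgeR). MAFF, a small MAF protein, rose by 1.88 ± 0.14 and 2.43 ± 0.14. NFE2L1, which controls proteasome genes, fell in parental cells (-0.52 ± 0.07) and rose in ρ0 cells (0.76 ± 0.07). The ρ0 cells thus raised ATF3 and MAFF as well as JUNB, and the difference between the lines was not tested.

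Many immediate early genes outside the 3 families were higher after starvation in both lines. Of 23 tested genes, 16 were higher, 3 lower and 4 did not pass in parental cells (median 0.91), and 13 were higher, 1 lower and 9 did not pass in ρ0 cells (median 0.65). Of all genes, 30.4% were higher and 35.5% lower in parental cells, and 19.2% and 22.1% in ρ0 cells. The ρ0 median was 0.57 without ρ0 control replicate 1 and 0.60 without replicate 2. DUSP1, a phosphatase that switches off MAP kinases, rose from 178 and 205 to 1349 and 1302 CPM in parental cells and from 66.4 and 90.8 to 377 and 377 CPM in ρ0 cells (2.79 ± 0.15 and 2.26 ± 0.15, adjusted p = 1.2e-05 and 1.3e-04, edgeR). KLF10, induced by TGF-β, rose by 3.49 ± 0.20 and 1.34 ± 0.19, and KLF6 by 1.72 ± 0.13 and 1.42 ± 0.13. NR4A3, an orphan nuclear receptor, rose in parental cells (3.13 ± 0.30, adjusted p = 8.6e-05) and was at -0.41 ± 0.30 in ρ0 cells (adjusted p = 0.31).

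IER3, a survival factor, fell in parental cells from 754 and 830 to 479 and 485 CPM and rose in ρ0 cells from 402 and 351 to 575 and 553 CPM (-0.72 ± 0.10 and 0.58 ± 0.10, adjusted p = 3.9e-04 and 0.0027, edgeR). ZFP36L1, which binds AU-rich RNA, did the same (-0.42 ± 0.08 and 0.65 ± 0.08). CTGF, a matrix protein and YAP target, fell in both (-0.39 ± 0.08 and -0.61 ± 0.08). Under starvation, 4 of the 23 genes were higher and 12 lower in ρ0 than in parental cells (median -0.48, all genes -0.01, with 32.9% higher and 33.5% lower).

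**Figure D5:**
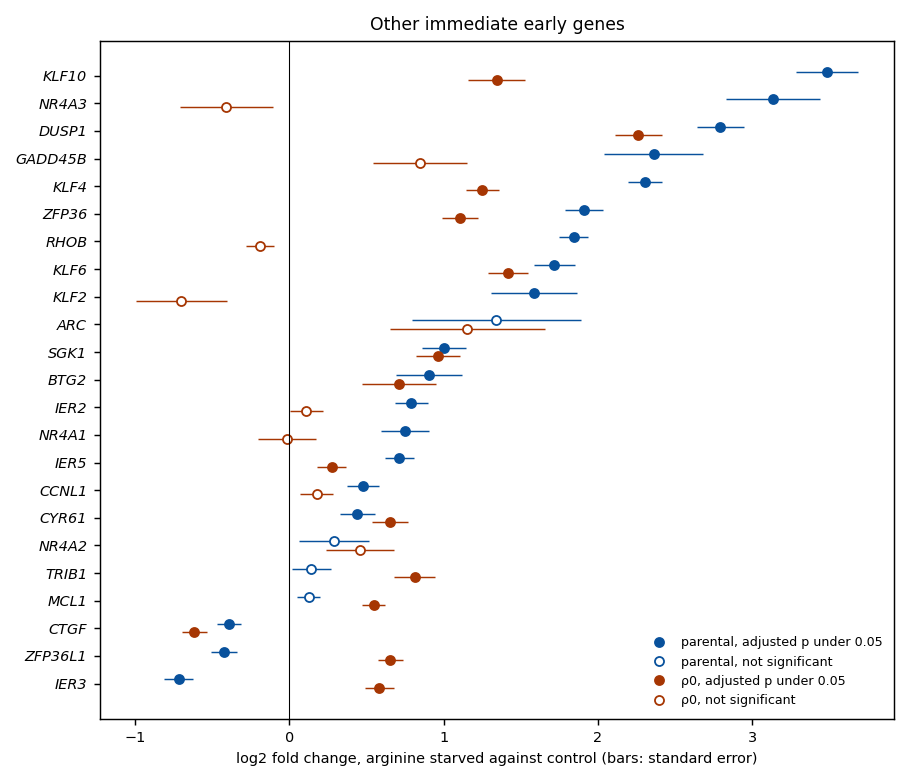
Log2 fold change of arginine-starved against control cells for 23 other immediate early genes, with parental cells in blue, ρ0 cells in brown, standard errors as bars and open circles for values that did not pass edgeR's test. Parental cells have 16 genes higher and 3 lower, and ρ0 cells 13 higher and 1 lower.

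Of 17 tested textbook targets of AP-1, 8 were higher and 7 lower in parental cells (median 0.03), where 30.4% of all genes were higher and 35.5% lower, compared with 7 higher and 0 lower in ρ0 cells (median 0.63), where 19.2% and 22.1% were. MMP13 is among the lower genes in parental cells, with means of 1.29 CPM in control medium and 0.170 CPM after starvation. It passed the filter on low genes only through parental control cells, so its call is no support. The ρ0 median was 0.79 without control replicate 1 and 0.63 without replicate 2. In ρ0 control cells the means of MMP1, MMP3, MMP9, MMP10, MMP13 and SPP1 were under 1 CPM, so a fall of these genes could hardly be seen. MMP3 (stromelysin 1) rose from 18.3 and 18.0 to 330 and 345 CPM in parental cells (4.22 ± 0.09, adjusted p = 4.7e-06, edgeR), whereas the ρ0 libraries had 0 and 0 counts in control medium and 1 and 1 count after starvation. MMP1 (interstitial collagenase) rose by 0.74 ± 0.08 in parental cells to 4735 and 4892 CPM, and in ρ0 cells from 0.763 and 0.900 to 13.0 and 13.9 CPM (4.0 ± 0.12, adjusted p = 1.6e-05). HMOX1, which encodes heme oxygenase 1, rose in both (3.13 ± 0.14 and 0.69 ± 0.13).

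Other AP-1 targets fell in parental cells. PLAU (urokinase) went from 847 and 883 to 61.3 and 57.8 CPM (-3.86 ± 0.22, adjusted p = 1.2e-05, edgeR), and MMP9 (gelatinase B) from 21.7 and 23.6 to 0.594 and 0.390 CPM (-5.52 ± 0.53, adjusted p = 8.1e-05). Neither passed in ρ0 cells (0.41 ± 0.19, adjusted p = 0.13, and 0.51 ± 0.68, adjusted p = 0.58). PLAU was at 355 and 221 CPM in the ρ0 control libraries, whereas MMP9 had only 24 and 3 counts there and so little room to fall. Without ρ0 control replicate 1 the values were 0.79 and 2.70, and without replicate 2 they were 0.12 and -0.34. CXCL8 (interleukin 8) fell in parental cells (-0.81 ± 0.15, adjusted p = 0.0022) and rose in ρ0 cells from 24.3 and 16.7 to 127 and 127 CPM (2.64 ± 0.16, adjusted p = 1.1e-04).

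Among 11 tested targets of EGR1, 7 were higher and 2 lower in parental cells (median 0.48), and 6 were higher and 2 lower in ρ0 cells (median 0.63), where EGR1 had no stable direction. Leaving out ρ0 control replicate 1 or 2 gave a ρ0 median of 0.68 or 0.70. For all genes, 30.4% were higher and 35.5% lower in parental cells, and 19.2% and 22.1% in ρ0 cells. GDF15, a stress cytokine, rose alike in value, by 2.53 ± 0.12 and 2.43 ± 0.12 (adjusted p = 9.2e-06 and 4.1e-05, edgeR). VEGFA, an angiogenic factor and also listed as an AP-1 target, rose by 0.82 ± 0.14 and 1.83 ± 0.14. F3 (tissue factor) rose in parental cells (1.57 ± 0.16, adjusted p = 9.9e-05) and was at 0.26 ± 0.15 in ρ0 cells (adjusted p = 0.21; 0.55 without control replicate 2), where it was at 1765 CPM or more in every library. PDGFB fell in both lines (-2.09 ± 0.27 and -0.88 ± 0.27, adjusted p = 3.7e-04 and 0.032). FN1 (fibronectin) fell in parental cells (-1.76 ± 0.56, adjusted p = 0.026), with ρ0 control libraries far apart at 410 and 91.1 CPM. Its ρ0 value of 0.09 ± 0.55 (adjusted p = 0.92) became 1.55 without control replicate 1 and -0.61 without replicate 2. The genes named here from these lists that passed in the ρ0 response all kept their direction when either ρ0 control library was left out.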

How the data were processed

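RNA-seq libraries of 2 cell lines in 2 media, with 2 libraries per group, were analysed, 8 in all. The authors deposited the raw counts of reads on each gene symbol, not normalized, as whole numbers. The submitters' processing notes name Bowtie, Partek and hg19, with no role. The annotation, strand setting and counter are not given in the sources used here. The analysis used edgeR 4.0.16 and limma 3.58.1 under R 4.3.3. filterByExpr kept 15262 of 23393 genes, and TMM gave the scaling. A single quasi-likelihood fit with a mean for each of the 4 groups took in the 8 libraries (4 residual and 3.40 prior degrees of freedom). Contrasts were starved against control in each line and ρ0 against parental in each medium. To obtain a standard error, the log2 value was divided by the root of its F statistic. The fits were tested on simulated data.

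Alternatives were DESeq2 (1.42.0), its size factors, upper-quartile scaling, total counts, limma-voom, no filter, genes with 10 or more counts in all libraries, the compared groups alone, the replicate number as a block and leaving out each library. The counts of the other lists without each ρ0 control library were added after seeing the data. Exon lengths for CPM per kb were exon unions of GENCODE v29. Of each other list, the genes named are the 2 largest rises and 2 largest falls past the test in each starvation response, with a mean of at least 1 CPM. Some genes that meet this rule are not reported here. The 10 genes and all lists were chosen with earlier results of these data known. Each group has 2 libraries, which limits the precision more than their depth does at high counts.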

Additional observations from a re-analysis of the deposited data

Results flagged for a closer look

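Among the EGR, FOS and JUN genes, only JUND moved in opposite directions in the 2 lines without overlap of starved and control libraries. It was higher after starvation in both parental libraries and lower in both ρ0 libraries. The difference between the responses (ρ0 minus parental) was -1.07 on the log2 scale, and it was not tested. In edgeR's test the ρ0 value of JUND did not pass (adjusted p = 0.077), and its parental call was lost in 6 settings. The ρ0 value kept its direction when any 1 library was left out, from -0.68 to -0.32. Of the listed genes outside these families, IER3, ZFP36L1, NFE2L1, CXCL8 and IL6 fell in parental cells and rose in ρ0 cells, and passed in both. IL6, listed as an AP-1 target, was at -0.88 ± 0.12 and 1.10 ± 0.11 (log2, adjusted p = 4.3e-04 and 4.8e-04, edgeR's test). How many of all genes moved in opposite directions is not given here.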

How the results depend on the processing

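The count of the 9 tested genes past edgeR's test in ρ0 cells rested on the ρ0 control libraries. It was 1 of 9 with both, 5 without replicate 1 (2 higher and 3 lower, beside 62.8% of all genes) and 6 without replicate 2 (5 higher and 1 lower, beside 62.4%), so leaving out 1 library gave 1 to 6. Here the lone library is assumed to vary like the other groups. With scaling by total counts it was 2, 1 higher and 1 lower. DEGs in ρ0 cells ranged from 1 to 2, the latter without ρ0 control replicate 2, and DEGs between the lines in control medium from 3 to 7 with 1 library left out, against 4, with 7 found without ρ0 control replicate 1. In ρ0 cells, FOSL1 turned to -0.16 without control replicate 1 (0.88 without replicate 2), and FOSB to 1.19 without control replicate 2 (-0.76 without replicate 1). JUND lost its call in parental cells in 6 settings and FOSL2 in 4, scaling by upper quartile or total counts among them, and EGR3 and FOSL1 lost theirs between the lines in control medium with the compared groups alone. Replicate numbers did not pair the libraries, with correlations of replicate differences from -0.053 to 0.039, and with the replicate block 8 of 9 genes passed in parental cells (JUND 0.55, adjusted p = 0.050). Of 607 values under alternatives for tested genes, 576 kept their direction and side of the threshold. Genes under 1 CPM, such as EGR3 in ρ0 cells, were limited by depth.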

Other observations

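The tested genes with levels most like those of EGR1 over the 8 libraries, by Pearson correlation of log2 CPM among 13212 genes with a mean of at least 1 CPM, were RPRD1B (r = 0.999), XPO6, SSU72, SNRPD1 and NOL11 (r = 0.996). RPRD1B was at 99.4 to 103 CPM in parental control cells, 180 to 181 CPM in starved parental cells, 90.8 to 119 CPM in ρ0 control cells and 102 to 102 CPM in starved ρ0 cells. NOL11 reached a mean of 254 CPM in starved parental cells, from 102 CPM in control medium. As for EGR1, the 2 ρ0 control libraries lay on both sides of the starved ρ0 libraries for both genes.

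Those most like FOSL1 were C18orf21 (r = 0.994), ARPC5L, LOC401127, WDR5 and ETF1 (r = 0.988). ETF1, a translation release factor, had a mean of 172 CPM in parental control cells and 361 CPM in starved parental cells, compared with 250 and 304 CPM in ρ0 cells. The libraries of these correlations are shared by all genes, and 2 of the 8, the ρ0 control libraries, differ from each other for many genes. No p-value was computed.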
